A study of Mus musculus with 24 samples.

Results

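The Slc22 and Slco genes encode membrane carriers that move organic ions into and out of cells. Genes were taken by symbol, as every row of the expression table named Slc22a or Slco followed by a number, without Slco1a1 and Slc22a5, which left 39 of the 34945 named genes. Expression is given as gene-level TPM, a measure of a gene's share of all transcripts that the authors computed and that already accounts for transcript length and library total. The 24 libraries come from mouse liver in 8 groups of 3. Floxed mice labelled FoxO1lox/lox; PPARαlox/lox, with no Cre named for them, served as WT. The knockouts were made with Albumin-Cre, a transgene driven from a hepatocyte promoter, and are labelled FoxO1-/- (LFKO), PPARα-/- (LPKO) and FoxO1-/-; PPARα-/- (LFPKO). Mice of every genotype were fed either diet, regular (RD) or high-fat (HFD), for 3 weeks, and the design text gives a 4 h fast. The labels state neither age nor sex. FoxO1 is an insulin-regulated transcription factor and PPARα a fatty acid-sensing nuclear receptor, and the design asks how liver expression depends on each of them and on diet.

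The SLC22 family holds organic cation transporters, which take up positively charged drugs, amines and vitamins, organic anion transporters, and several members whose substrates remain uncertain. The SLCO family holds the organic anion transporting polypeptides, which bring bile acids, bilirubin, steroid and thyroid hormone conjugates and many drugs into cells. In liver, several of these carriers sit on the blood-facing membrane of hepatocytes and supply the enzymes of drug and bile acid metabolism, and some of their genes are known to respond to nuclear receptors or to growth hormone.

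Foxo1 ranged from 0.250 to 0.484 TPM in the 12 LFKO and LFPKO libraries and from 4.06 to 9.94 TPM in the other 12. Ppara was 57.5 to 87.3 TPM in the 12 libraries labelled LPKO or LFPKO and 37.1 to 68.8 TPM in the others, so its whole-gene value does not check those labels. Of 26 known PPARα target genes, 16 were called lower and 1 higher in the libraries labelled LPKO than in WT on the regular diet. Of all tested genes 5.85% were called there, and that list was chosen with earlier results of these data known. Transcripts of the mitochondrial genome and of the Mup genes, which code for urinary pheromone-binding proteins, take large shares of the TPM. The Mup share was 9.44% ± 1.99 in RD WT and 25.1% ± 5.33 in HFD WT livers (SD, n = 3), and 5.98% to 24.2% as a mean in the other groups. Because TPM is a share, a gene's value moves when such transcripts grow. Values after rescaling are therefore given beside the called diet results of those genes taken by symbol that are described here. The labels number the replicates without saying that each was a separate mouse. The p-values therefore rest on the spread among these libraries, which may be technical. Since TPM carries no read counts, the depth is unknown. In bulk liver, fewer cells of a type and less RNA per cell cannot be told apart.

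Of the 39 genes, 16 had a mean of at least 1 TPM over the 24 libraries and were tested. Slc22a27, at 1.06 TPM, lay just inside that limit and Slco3a1, at 0.778 TPM, just outside. Slc22a26 and Slc22a27 reached the limit through the LFKO libraries alone. Slco1b2, the gene of a hepatocyte carrier of bilirubin and bile acids, was the most abundant, with a mean of 542 TPM. It held 41.1% to 58.6% of the TPM of all 39 in each library. Lower levels were found for Slc22a30 (92.8 TPM), a rodent organic anion transporter gene, and Slc22a18 (68.5 TPM), an imprinted gene whose substrate is uncertain. Next came Slco2b1 (59.4 TPM), Slco1a4 (35.4 TPM), Slc22a7 (27.4 TPM), Slc22a23 (19.3 TPM) and Slco2a1 (11.4 TPM). Slc22a28 (8.93 TPM), Slc22a15 (4.43 TPM), Slc22a4 (1.6 TPM), Slco1a6 (1.24 TPM), Slc22a3 (1.23 TPM), Slc22a26 (1.17 TPM) and Slc22a27 closed the list.

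The other 23 genes were not tested. Among them were the renal carriers Slc22a6, Slc22a8, Slc22a12 and Slc22a2, the brain thyroid hormone carrier Slco1c1 at a mean of 0.225 TPM, Slc22a29 at 0.643 TPM, Slc22a21 at 0.442 TPM and Slc22a17 at 0.234 TPM. Slc22a20, Slco6b1 and Slco6d1 were listed at 0 in every library.

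**Figure D1:**
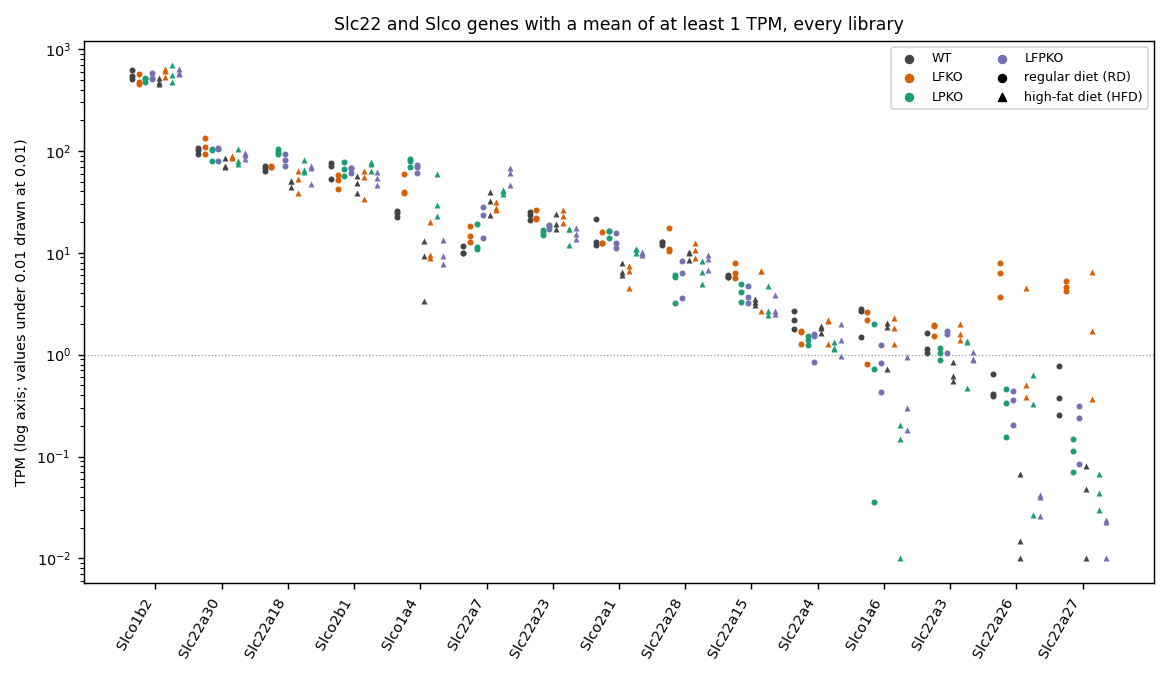
TPM of 15 of the 16 tested genes in each of the 24 libraries, on a log axis, coloured by genotype, with circles for RD and triangles for HFD and values under 0.01 TPM drawn at 0.01. The genes span Slco1b2, at 449 to 691 TPM, to Slc22a26 and Slc22a27, which lie near 0 outside the LFKO libraries.

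Slc22a26, Slc22a27, Slc22a28, Slc22a29 and Slc22a30 are organic anion transporter genes that lie side by side on the minus strand of chromosome 19 (GRCm38, GENCODE M21). Their spans are 7781041 to 7802667, 7864388 to 7966027, 8062209 to 8131982, 8160165 to 8218900 and 8335371 to 8405111. Promoter windows of 250 bases before the start were read from RefSeq (GRCm38.p6), which had a window for 33 of the 39 genes and 14 of the 16 tested. The windows of Slc22a28 and Slc22a30 are shown because these genes differ in level and were called in different comparisons although their upstream sequences are nearly the same. Over 244 bases in register, 238 were identical (97.5%) and 6 differed, given in capitals. The window of Slc22a26 is shown because this gene had the largest difference between LFKO and WT on the regular diet among the 16 tested. On the high-fat diet Slc22a27 had the larger log2 difference of the 2 genes (1.53 against 1.14). In the Slc22a26 window the match to TTCNNNGAA, the core of a STAT site, is in capitals.
Slc22a28, chr19:8131983-8132226, minus strand: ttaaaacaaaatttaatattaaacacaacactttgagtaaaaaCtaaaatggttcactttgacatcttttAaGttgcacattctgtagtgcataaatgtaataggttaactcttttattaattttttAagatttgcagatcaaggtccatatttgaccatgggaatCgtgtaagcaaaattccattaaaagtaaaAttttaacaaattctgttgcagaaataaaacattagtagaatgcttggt
Slc22a30, chr19:8405112-8405355, minus strand: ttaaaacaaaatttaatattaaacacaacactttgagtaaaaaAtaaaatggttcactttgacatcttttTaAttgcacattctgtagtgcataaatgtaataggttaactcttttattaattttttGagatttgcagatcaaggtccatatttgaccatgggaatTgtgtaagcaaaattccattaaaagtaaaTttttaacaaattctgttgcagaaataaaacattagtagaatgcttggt
Slc22a26, chr19:7802668-7802917, minus strand: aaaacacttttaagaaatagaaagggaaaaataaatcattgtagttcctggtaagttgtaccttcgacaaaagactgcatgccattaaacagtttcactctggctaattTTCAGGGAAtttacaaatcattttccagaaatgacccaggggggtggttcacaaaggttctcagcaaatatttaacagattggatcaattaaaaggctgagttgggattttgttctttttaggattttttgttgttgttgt

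The match in Slc22a26 lies at -141 to -133 from the start. The windows of its neighbours Slc22a27 and Slc22a29 held no such match, while those of Slco1b2 and Slc22a19 did. On both strands, TTCNNNGAA was found in 7.02% of all 32851 RefSeq promoter windows and in 7 of the 38 windows of these genes. The FoxO core GTAAACA was found in 3.17% of all windows and 0 of the 38 and the nuclear receptor half-site AGGTCA in 14% and 4 of the 38. These are matches of letters in a short window and not measured binding sites.

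Likeness between neighbours extends to the transcripts. In GENCODE M21 transcripts, 67.0% of the distinct 31-base words of Slc22a28 also occur in Slc22a30, 41.8% of those of Slc22a27 in Slc22a29, and 11.5% of those of Slc22a26 in AC115715.1. The division of reads within these pairs is therefore uncertain, and for Slc22a28 with Slc22a30 and Slc22a27 with Slc22a29 the sums are given as well. Slc22a7, Slco1b2, Slc22a18 and Slc22a23 shared no such word with another gene, and Slco1a4 shared 5.03%.

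Log2 changes below are differences of log2(TPM + 1) between group means, each ± its SE, and the added 1 makes changes of genes at low TPM look smaller. A gene was called where its limma p, adjusted by Benjamini-Hochberg over 10551 tested genes, was under 0.05. Comparisons of 2 or more knockouts with the same WT livers share those libraries. On the regular diet, LFKO differed from WT in 2 of the 16 genes, Slc22a26 and Slc22a27, both higher, while 1.67% of all tested genes were called. Both reached the 1 TPM limit only through LFKO libraries. Any count that includes them, on either diet, therefore cannot be weighed against the share of all tested genes. Against WT, LPKO had 3 called genes (5.85% of all tested): Slco1a4 was higher, Slc22a23 and Slc22a28 lower. LFPKO against WT also gave 3 (7.45% of all tested), with Slco1a4 and Slc22a7 higher and Slc22a28 lower. LFPKO against LFKO gave 3 (5.08% of all tested), all lower, namely Slc22a26, Slc22a27 and Slc22a28. LFPKO against LPKO gave 0 by limma (0.123% of all tested), with 1 gene at an unadjusted p under 0.05.

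On the high-fat diet, LFKO against WT gave 4 called genes (13.5% of all tested, 12.7% higher), all higher, with Slc22a3, Slc22a26 and Slc22a27 among them. LPKO against WT gave 1, Slco1a4, higher (4.73% of all tested). LFPKO against WT gave 1, Slc22a7, higher (3.09% of all tested). LFPKO against LFKO gave 5 (10.6% of all tested), with Slc22a7 and Slco2a1 higher and Slc22a23, Slc22a26 and Slc22a27 lower. LFPKO against LPKO gave 1, Slco1a4, lower (0.351% of all tested). Between diets in WT livers, 7 of the 16 were called (30.8% of all tested). Slc22a7 was the 1 called higher, and Slc22a30, Slc22a18, Slco1a4, Slco2a1 and Slc22a15 were among those lower on the high-fat diet, where 29.8% of all tested genes were called lower. The genotype by diet interactions gave 0 called genes for LFKO (0.00948% of all tested), 0 for LPKO (0.171%) and 0 for LFPKO (0.0284%) by limma, with 2, 2 and 3 genes at an unadjusted p under 0.05.

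**Figure D2:**
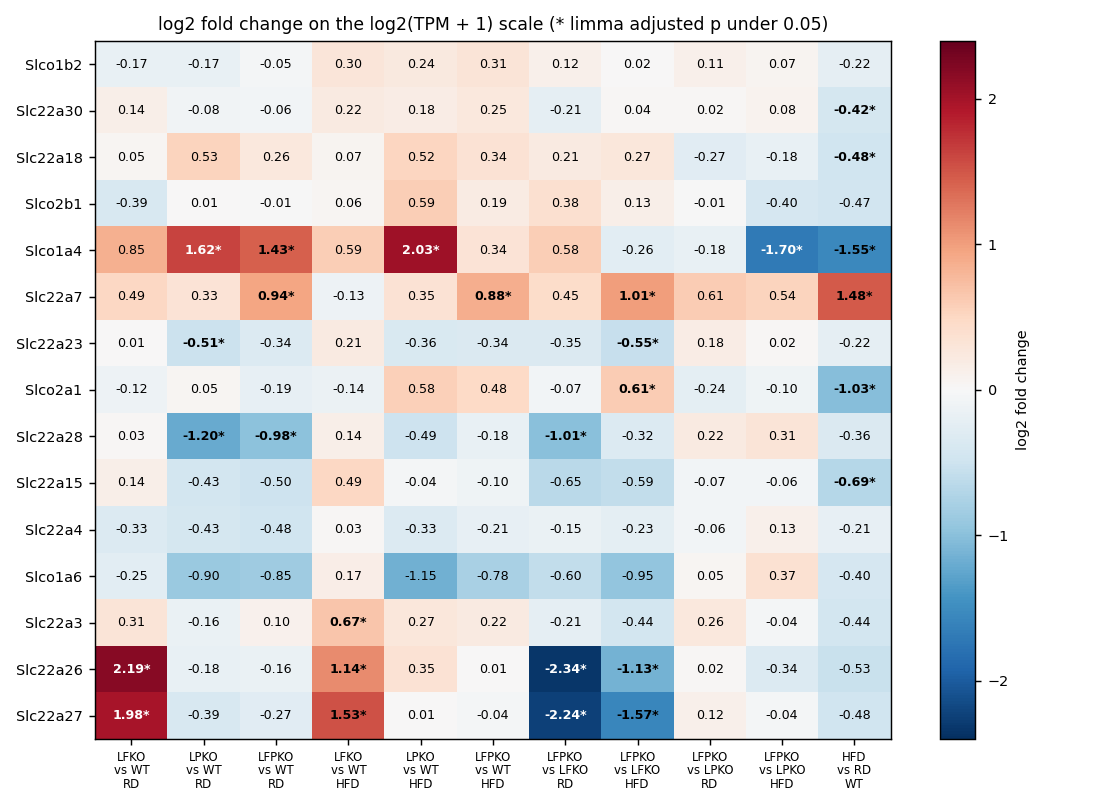
Log2 fold changes of 15 of the 16 tested genes in the 11 comparisons between groups, on the log2(TPM + 1) scale, with called values marked. Slc22a26 and Slc22a27 have the largest LFKO differences, and Slco1a4 and Slc22a7 move in opposite directions between diets in WT livers.

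Among the organic anion transporting polypeptides, Slco1a4 differed between both genotypes and diets. It encodes a carrier of bile acids, digoxin and other drugs that is also present at the blood-brain barrier, and it lies at chromosome 6, 141805440 to 141856199, minus strand. On the regular diet its TPM was 25.7, 22.7 and 24.8 in WT, 38.5, 58.8 and 39.2 in LFKO, 68.7, 78.9 and 83.2 in LPKO and 60.8, 70.2 and 71.9 in LFPKO livers. On the high-fat diet it was 9.33, 3.40 and 13.2 in WT, 9.52, 8.96 and 20.1 in LFKO, 59.2, 29.8 and 22.9 in LPKO and 9.32, 7.79 and 13.3 in LFPKO livers. No RD knockout library overlapped RD WT, while on the high-fat diet LPKO was the only knockout whose libraries all lay above those of WT.

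As a mean, Slco1a4 went from 24.4 ± 1.56 TPM in RD WT to 76.9 ± 7.42 TPM in RD LPKO livers (SD, n = 3), a log2 change of 1.62 ± 0.36 (limma adjusted p = 0.00855). The change in RD LFPKO livers was 1.43 ± 0.36 (limma adjusted p = 0.0168), a call lost without RD WT replicate 2 (adjusted p = 0.0554) or 3 (0.0509) or RD LFPKO replicate 3 (0.0671). In RD LFKO livers the difference of 0.85 ± 0.36 did not pass (limma adjusted p = 0.259). The RD LPKO and RD LFPKO libraries overlapped in range.

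Between diets, Slco1a4 fell in WT livers to 8.63 ± 4.92 TPM (SD, n = 3), by 1.55 ± 0.36 in log2 units (limma adjusted p = 0.00535), and by 1.23 after rescaling (limma adjusted p = 0.0277). Within the high-fat diet it was higher in LPKO livers, at 37.3 ± 19.3 TPM, than in WT by 2.03 ± 0.36 (limma adjusted p = 0.00167). A fit of these 2 groups alone gave an adjusted p of 0.0830. HFD LFPKO livers, at 10.1 ± 2.84 TPM, were lower than HFD LPKO livers, with a log2 change of -1.70 ± 0.36 (limma adjusted p = 0.0423). That call was lost without HFD LPKO replicate 1 (-1.31, limma adjusted p = 0.278), and adjusted p was 0.105 without HFD LPKO replicate 2, 0.145 without HFD LFPKO replicate 1 and 0.180 without HFD LFPKO replicate 2. It was also lost for Slco1a4 with a pseudocount of 0.1 (0.0527), with no limit on the mean (0.111) and with the compared groups alone (0.300). The LFPKO by diet interaction for Slco1a4 was -1.10 ± 0.51 (limma adjusted p = 0.628), so a difference between diets in that knockout effect did not pass.

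Slco2a1, the prostaglandin transporter gene (chromosome 9, 102988712 to 103096002, plus strand), was lower on the high-fat diet. Its TPM was 12.0, 12.9 and 21.4 in RD WT and 7.94, 6.06 and 6.53 in HFD WT livers, with no overlap. The log2 change was -1.03 ± 0.18 (limma adjusted p = 8.30e-04), and -0.70 after rescaling (limma adjusted p = 0.00472). Within the high-fat diet it was 4.53, 6.67 and 7.42 in LFKO, 11, 11 and 9.96 in LPKO and 9.45, 10.3 and 9.88 in LFPKO livers. Both groups labelled as lacking PPARα lay above all WT and LFKO libraries on that diet. LFPKO exceeded LFKO by 0.61 ± 0.18 (limma adjusted p = 0.0314), a call lost when any of 5 of the 6 libraries was left out, all but HFD LFKO replicate 3 (adjusted p = 0.0596 to 0.0887), with no limit on the mean (0.0654) or with the compared groups alone (0.156). LPKO exceeded WT by 0.58 ± 0.18, which did not pass (limma adjusted p = 0.0664).

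Between diets in WT livers, the mean summed levels of some cell type markers were also lower on the high-fat diet. The summed level of 10 sinusoidal endothelium markers was 75.2 to 99.2 TPM in RD WT and 51.8 to 76.9 TPM in HFD WT libraries, with 1 of 10, Eng, called lower and a median log2 change of -0.43, against 29.8% called lower and a median of -0.29 over all tested genes. That of 9 stellate cell markers was 122 to 184 TPM against 50.1 to 71.9 TPM, with 7 of 8 tested called lower and a median of -0.90. Of 8 hepatocyte markers 4 were called lower, with a median of -0.45. No marker of these lists was at 0 in all 24 libraries, and the part of these cells in the Slco2a1 result was not tested. Across HFD LFPKO and LFKO livers, where Slco2a1 was higher in LFPKO, the endothelial sum was 44.1 to 53.6 TPM in LFPKO and 51.4 to 92.7 TPM in LFKO libraries.

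Slco1b2 was called in none of the 14 comparisons. It was 561 ± 61.0 TPM in RD WT and 480 ± 37.1 TPM in HFD WT livers (SD, n = 3), and 497 to 596 TPM as a mean in the knockout groups. The diet difference in WT was -0.22 ± 0.13 (limma adjusted p = 0.167) and 0.14 after rescaling (limma adjusted p = 0.505), so its sign depends on the scaling. Slco2b1, a carrier of steroid sulfates and drugs, was also called in none of them, at 48.0 to 72.1 TPM as a mean per group. After rescaling, Slco2b1 passed in HFD LPKO against WT (0.45, limma adjusted p = 0.0360) and in RD LFPKO against LFKO (0.42, limma adjusted p = 0.0467). Slco1a6 fell nowhere by the test, although HFD LPKO libraries stood at 0.204, 0.150 and 0 TPM against 1.88, 2.06 and 0.719 TPM in HFD WT. That difference was -1.15 ± 0.33 (limma adjusted p = 0.0502), and -1.30 after rescaling, where it passed (limma adjusted p = 0.0228).

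**Figure D3:**
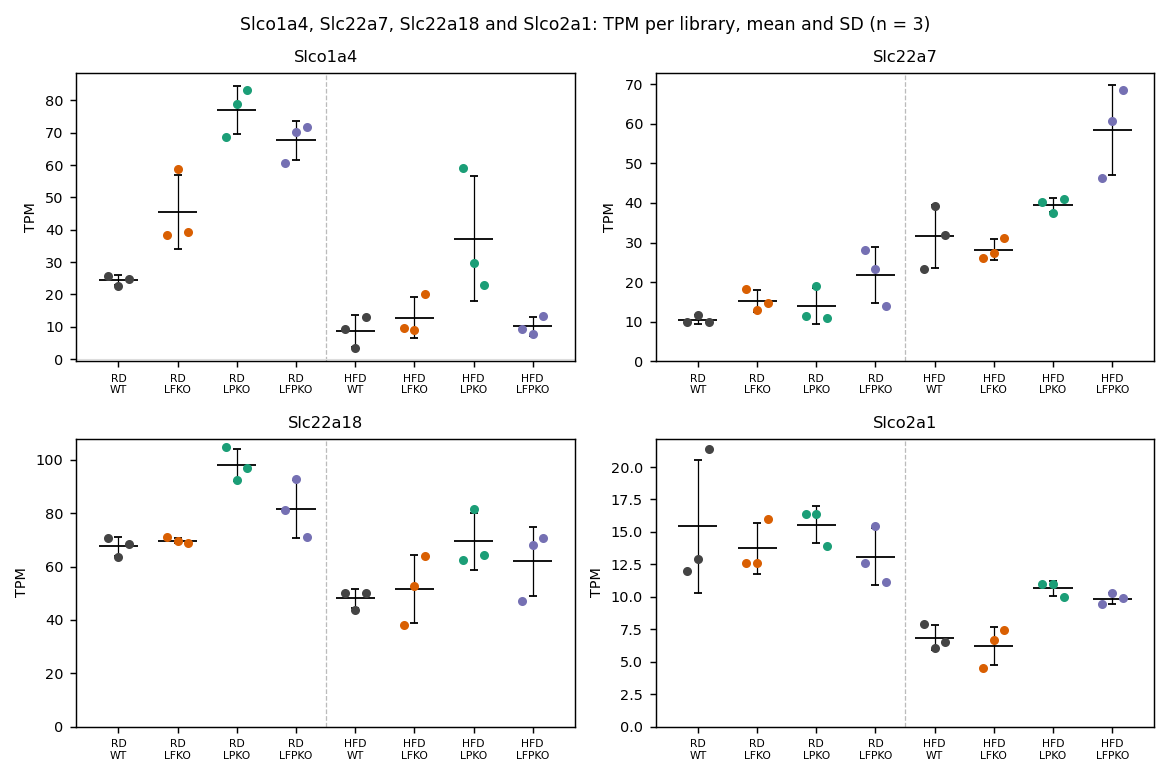
TPM of Slco1a4, Slc22a7, Slc22a18 and Slco2a1 in each library (points), with group mean and SD (n = 3) as lines and RD groups left of HFD groups. Slco1a4 is highest in RD LPKO and RD LFPKO livers and Slc22a7 in HFD LFPKO livers.

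Among the cation and zwitterion carriers, Slc22a3, the gene of the extraneuronal monoamine transporter, was 0.547, 0.847 and 0.624 TPM in HFD WT and 1.40, 1.59 and 1.99 TPM in HFD LFKO livers. The groups did not overlap and the log2 difference was 0.67 ± 0.17 (limma adjusted p = 0.0155), against 0.55 after rescaling (limma adjusted p = 0.0679). The call was also lost with the compared groups alone (adjusted p = 0.0905) and without HFD LFKO replicate 2 (0.0555) or 3 (0.0914). Of the 31-base words of Slc22a3, 8.69% also occur in transcripts of Plg, the abundant plasminogen gene. Slc22a15, a zwitterion carrier gene, was 5.80, 6.04 and 5.76 TPM in RD WT and 3.27, 3.06 and 3.49 TPM in HFD WT livers. Its diet difference was -0.69 ± 0.24 (limma adjusted p = 0.0354), and -0.39 after rescaling (limma adjusted p = 0.281), and the call was lost when any 1 of the 6 libraries was left out (adjusted p = 0.0536 to 0.123) or no limit was set on the mean (0.0754). Slc22a4, which encodes the ergothioneine transporter, was called in no comparison, at 1.21 to 2.23 TPM as a mean per group.

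Slc22a7 was the gene that rose on the high-fat diet. It encodes an organic anion transporter of hepatocytes that carries cyclic GMP, orotate and other small anions, and lies at chromosome 17, 46432183 to 46438457, minus strand. On the regular diet its TPM was 9.88, 11.7 and 9.84 in WT, 18.3, 12.8 and 14.6 in LFKO, 11.5, 19.1 and 10.9 in LPKO and 28.0, 23.3 and 14.1 in LFPKO livers. On the high-fat diet it was 23.4, 39.3 and 31.9 in WT, 26.0, 27.3 and 31.2 in LFKO, 40.1, 37.5 and 40.9 in LPKO and 46.2, 60.7 and 68.4 in LFPKO livers. In each of the 4 genotypes every HFD library lay above all RD libraries.

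The diet change of Slc22a7 in WT livers was 1.48 ± 0.23 (limma adjusted p = 3.09e-04), from 10.5 ± 1.08 TPM to 31.5 ± 7.96 TPM (SD, n = 3), and 1.83 after rescaling (limma adjusted p = 1.02e-04). LFPKO livers had the highest mean on both diets. They exceeded WT by 0.94 ± 0.23 on the regular diet (limma adjusted p = 0.0135) and by 0.88 ± 0.23 on the high-fat diet (limma adjusted p = 0.0351). The RD call was lost with the compared groups alone (adjusted p = 0.0603) and without RD WT replicate 3 (0.0536) or RD LFPKO replicate 1 (0.0883) or 2 (0.0530). The HFD call was lost after rescaling (0.79, limma adjusted p = 0.0648), with no limit on the mean (0.0841), with the compared groups alone (0.133) and without HFD WT replicate 1 (adjusted p = 0.190) or 3 (0.0809) or HFD LFPKO replicate 2 (0.131) or 3 (0.155). Against HFD LFKO, HFD LFPKO livers were higher by 1.01 ± 0.23 (limma adjusted p = 0.00604), and every alternative kept that call. In the order of group means, from RD WT through RD LPKO, RD LFKO, RD LFPKO, HFD LFKO, HFD WT and HFD LPKO to HFD LFPKO, the libraries of each pair of neighbours overlapped except for the last pair.

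In the chromosome 19 cluster, Slc22a26 and Slc22a27 were higher in LFKO than in WT livers on the regular diet. Slc22a26 was 0.396, 0.415 and 0.652 TPM in RD WT and 6.37, 3.70 and 7.88 TPM in RD LFKO livers. Slc22a27 was 0.255, 0.374 and 0.778 TPM in RD WT and 4.25, 4.61 and 5.33 TPM in RD LFKO livers. RD LFKO and RD WT libraries did not overlap for either gene. The log2 changes were 2.19 ± 0.34 for Slc22a26 (limma adjusted p = 0.00118) and 1.98 ± 0.34 for Slc22a27 (limma adjusted p = 0.00276).

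In RD LFPKO livers both stood near WT, at 0.206, 0.438 and 0.355 TPM for Slc22a26 and 0.0851, 0.312 and 0.238 TPM for Slc22a27. Against LFKO the changes were -2.34 ± 0.34 (limma adjusted p = 1.51e-04) and -2.24 ± 0.34 (limma adjusted p = 2.24e-04). These calls held in every alternative that kept the genes. RD LPKO livers had 0.316 ± 0.153 TPM of Slc22a26 and 0.110 ± 0.0388 TPM of Slc22a27 (SD, n = 3). The RD LFKO libraries were thus the only RD libraries above 1 TPM for either gene.

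On the high-fat diet the LFKO libraries differed widely. Slc22a26 was 0.506, 0.383 and 4.54 TPM and Slc22a27 0.365, 1.70 and 6.43 TPM in HFD LFKO replicates 1, 2 and 3. In HFD WT libraries Slc22a26 was 0.0148, 0 and 0.0667 TPM and Slc22a27 0.0801, 0.0483 and 0 TPM. Replicate 3 was thus the highest LFKO library for both genes, and its Mup share was 6.5%, against 17.7% and 10.9% in replicates 1 and 2, a value whose part in the result was not tested.

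The LFKO difference on that diet was 1.14 ± 0.34 for Slc22a26 (limma adjusted p = 0.0351) and 1.53 ± 0.34 for Slc22a27 (limma adjusted p = 0.00945). Without HFD LFKO replicate 3 the first was 0.49 (limma adjusted p = 0.206) and the second 0.88, still called. A fit of the compared groups alone ended the Slc22a27 call (adjusted p = 0.164). The Slc22a26 call, for a gene that passed the limit through LFKO libraries, was also lost with no limit on the mean (adjusted p = 0.0738), after rescaling (0.0592), with the compared groups alone (0.213) and without HFD WT replicate 1 (0.0643), 2 (0.139) or 3 (0.0589). LFPKO against LFKO gave -1.13 ± 0.34 for Slc22a26 (limma adjusted p = 0.0396) and -1.57 ± 0.34 for Slc22a27 (limma adjusted p = 0.00464). Without HFD LFKO replicate 3 these were -0.48 (limma adjusted p = 0.243) and -0.92, the latter still called, although the compared groups alone gave an adjusted p of 0.189 for Slc22a27. The LFKO by diet interaction of Slc22a26 was -1.05 ± 0.49 and did not pass (limma adjusted p = 0.392). Its size depends on the added 1, since the WT means were 0.488 TPM in RD and 0.0272 TPM in HFD livers. Among the alternatives the LFKO difference of Slc22a26 reached 3.33 on the regular and 3.16 on the high-fat diet. The LFPKO against LFKO call of Slc22a26 was also lost with no limit on the mean (adjusted p = 0.0865), with the compared groups alone (0.306) and without HFD LFPKO replicate 1 (0.104), 2 (0.0847) or 3 (0.0691).

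Slc22a29, which shares sequence with Slc22a27 and lay below the limit for testing, was 2.78, 2.56 and 0.943 TPM in RD LFKO against 0.356, 0.308 and 0.547 TPM in RD WT livers. The sum of Slc22a27 and Slc22a29 was 0.873 ± 0.393 TPM in RD WT, 6.82 ± 0.480 TPM in RD LFKO and 0.416 ± 0.221 TPM in RD LFPKO livers (SD, n = 3). In HFD livers that sum was 0.114 ± 0.0727 TPM in WT, 4.92 ± 4.89 TPM in LFKO and 0.128 ± 0.102 TPM in LFPKO. With no limit on the mean, Slc22a29 did not pass for LFKO against WT on the regular diet. On the high-fat diet Slc22a29 passed for LFKO against WT (1.36, limma adjusted p = 0.0177). Its HFD values were 0.430, 1.96 and 3.90 TPM in LFKO and 0.112, 0 and 0.101 TPM in WT libraries. It also passed for LFPKO against LFKO on both diets (-1.30 and -1.31, limma adjusted p = 0.0250 and 0.0150).

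Lists of genes known to differ between male and female liver moved in the comparisons in which Slc22a26 and Slc22a27 were called, and in others. Of 16 tested female-biased genes, 5 were called higher and 0 lower in RD LFKO than in RD WT livers (median log2 change 0.85, against 0.03 over all tested genes). Of 21 male-biased genes, 0 were higher and 9 lower (median -1.08), where 1.67% of all tested genes were called. In RD LFPKO against LFKO livers, 1 female-biased gene was higher and 4 lower, and 8 male-biased genes were higher and 0 lower (5.08% of all tested). Between diets in WT livers, 0 female-biased genes were higher and 9 lower (median -0.84, against -0.29 over all tested genes). There 3 male-biased genes were higher and 2 lower, and 30.8% of all tested genes were called. Slc22a26 and Slc22a27 were not called between those diets (limma adjusted p = 0.219 and 0.260). For both genes, however, all HFD WT libraries lay below all RD WT libraries. The mean of Slc22a26 was 0.488 TPM in RD WT and 0.0272 TPM in HFD WT livers, and that of Slc22a27 0.469 and 0.0428 TPM. At such levels the added 1 makes log2 changes look smaller, here -0.53 and -0.48. Neither list holds an Slc22 or Slco gene, and both were drawn up with earlier results of these data known. The part of sex-biased expression in the values of the cluster was not tested.

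**Figure D4:**
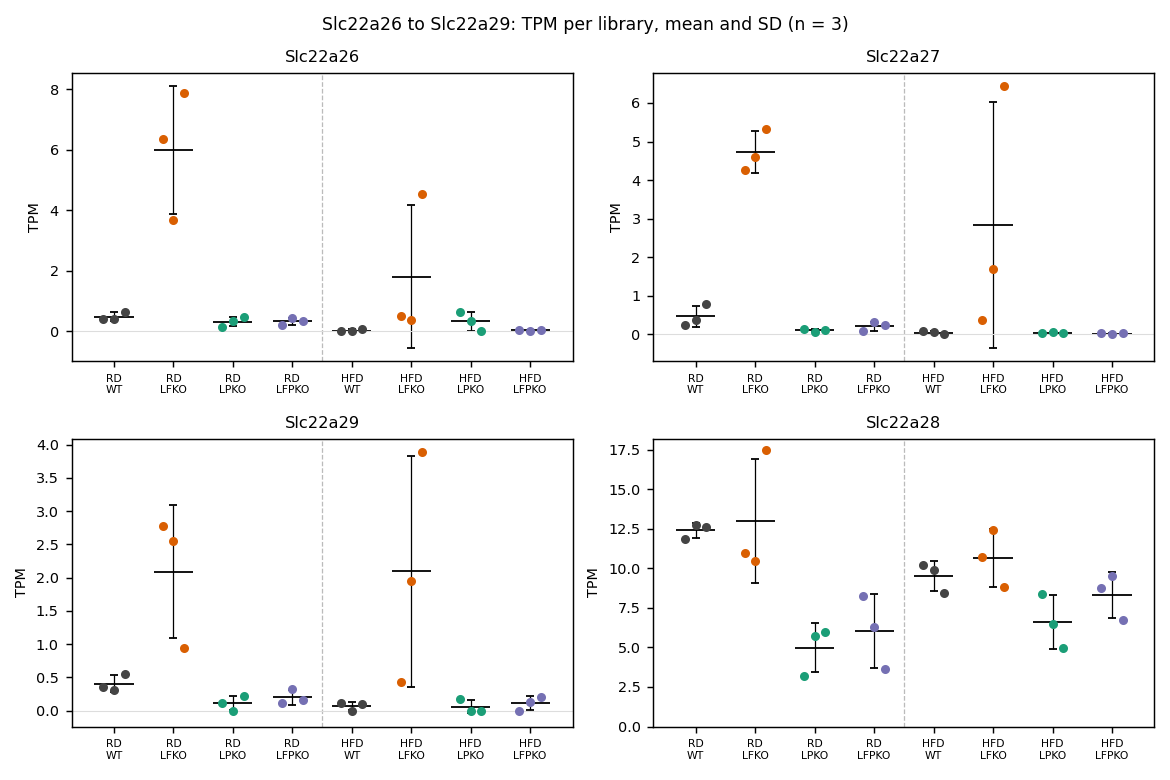
TPM of the chromosome 19 cluster genes Slc22a26, Slc22a27, Slc22a29 and Slc22a28 in each library (points), coloured by genotype, with group mean and SD (n = 3) as lines. On the regular diet, Slc22a26, Slc22a27 and Slc22a29 are higher in LFKO than in WT libraries, and Slc22a28 is lower in LPKO and LFPKO libraries.

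Slc22a28 fell in the RD libraries labelled as lacking PPARα. On the regular diet it was 11.9, 12.7 and 12.6 TPM in WT, 11, 10.5 and 17.5 TPM in LFKO, 3.19, 5.74 and 6.01 TPM in LPKO and 8.26, 6.28 and 3.61 TPM in LFPKO livers. All 6 LPKO and LFPKO libraries lay below all 6 WT and LFKO libraries. The change from WT was -1.20 ± 0.24 in LPKO (limma adjusted p = 0.00384) and -0.98 ± 0.24 in LFPKO livers (limma adjusted p = 0.0145). LFPKO was lower than LFKO by a log2 change of -1.01 ± 0.24 (limma adjusted p = 0.0149).

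The LFPKO calls were lost without RD LFPKO replicate 3 (-0.71 against WT and -0.73 against LFKO, limma adjusted p = 0.113 and 0.132). Both were also lost with the compared groups alone (adjusted p = 0.0559 and 0.0835). The call against WT was lost without RD WT replicate 3 (adjusted p = 0.0501) and that against LFKO without RD LFKO replicate 3 (adjusted p = 0.108). Under high-fat feeding Slc22a28 averaged 9.50 ± 0.963 TPM in WT livers and 6.59 ± 1.71 TPM in those labelled LPKO (SD, n = 3), a difference of -0.49 ± 0.24 that did not pass (limma adjusted p = 0.266). The LPKO by diet interaction was 0.71 ± 0.34 (limma adjusted p = 0.617).

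Slc22a30, whose upstream sequence matches that of Slc22a28 at all but 6 of 244 bases, was 93.5, 101 and 106 TPM in RD WT and 79.5, 104 and 102 TPM in RD LPKO livers, with overlapping ranges. The sum of both genes was 113 ± 6.76 TPM in RD WT, 100.2 ± 15.2 TPM in RD LPKO and 103 ± 17.5 TPM in RD LFPKO livers. Slc22a28 made up 11% ± 0.328 of it in RD WT, 4.88% ± 0.903 in RD LPKO and 5.76% ± 1.54 in RD LFPKO livers (SD, n = 3). In HFD livers these shares were 11.2% ± 0.783 in WT, 7.12% ± 1.14 in LPKO and 8.54% ± 1.86 in LFPKO livers. Between diets in WT, Slc22a30 was lower, at 84.4, 71.4 and 69.8 TPM on the high-fat diet, with a log2 change of -0.42 ± 0.15 (limma adjusted p = 0.0422). After rescaling that change was -0.05 (limma adjusted p = 0.884). It was also lost with no limit on the mean (adjusted p = 0.0745) and without RD WT replicate 2 or 3 or HFD WT replicate 2 or 3 (0.101 to 0.146).

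Slc22a18 and Slc22a23 have no settled substrate. Slc22a18 (chromosome 7, 143473736 to 143499334, plus strand) was 70.6, 63.4 and 68.5 TPM in RD WT and 105, 92.4 and 97.1 TPM in RD LPKO livers, with no overlap. The difference of 0.53 ± 0.16 did not pass with the values as deposited (limma adjusted p = 0.0597) and passed after rescaling (0.51, limma adjusted p = 0.0112). Between diets in WT it went to 50.1, 43.8 and 50.3 TPM, a log2 change of -0.48 ± 0.16 (limma adjusted p = 0.0323). After rescaling that change was -0.12 (limma adjusted p = 0.587), and it was lost without any 1 of the RD WT libraries or HFD WT replicate 2 (adjusted p = 0.0567 to 0.140) and with no limit on the mean (0.0608).

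Slc22a23 (chromosome 13, 34179158 to 34345182, minus strand) was 21, 23.4 and 25.3 TPM in RD WT and 16.1, 15.0 and 16.7 TPM in RD LPKO livers, again with no overlap. The change was -0.51 ± 0.15 (limma adjusted p = 0.0415), and leaving out any 1 of these 6 libraries ended the call (adjusted p = 0.0523 to 0.143), as did having no limit on the mean (0.0718). In HFD livers it was 19.7, 23.2 and 26.6 TPM in LFKO and 13.7, 17.5 and 15.2 TPM in LFPKO livers. That change was -0.55 ± 0.15 (limma adjusted p = 0.0181), and -0.40 after rescaling (limma adjusted p = 0.0664). It was lost with the compared groups alone (adjusted p = 0.151) and without HFD LFKO replicate 2 (0.0634) or 3 (0.120) or HFD LFPKO replicate 1 (0.0968).

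**Figure D5:**
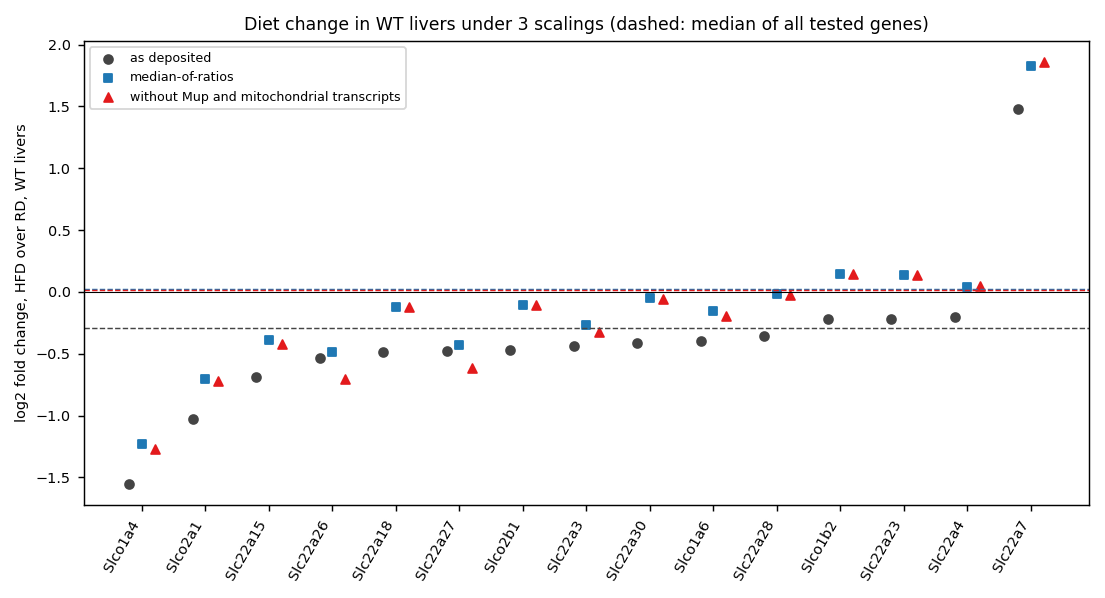
Log2 change between diets in WT livers for 15 of the 16 tested genes with the values as deposited, after rescaling by median-of-ratios factors, and after removal of Mup and mitochondrial-genome transcripts. Slc22a7, Slco1a4 and Slco2a1 keep their direction and call under all 3, while most of the other decreases move towards 0. Dashed lines mark the median of all tested genes, at -0.29 for the values as deposited.

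Rescaling by median-of-ratios factors left 3 of the 7 diet calls in WT livers, Slc22a7, Slco1a4 and Slco2a1, and so did removal of Mup and mitochondrial-genome transcripts. The median diet change of all tested genes lay at -0.29 before and 0.02 after the median-of-ratios rescaling. The summed TPM of the 39 genes was 1070 ± 87.3 in RD WT and 863 ± 52.9 in HFD WT livers (SD, n = 3), and 1066 to 1160 as a mean in the knockout groups. Slco1b2, Slc22a4 and Slc22a23 changed sign from negative to positive under both rescalings and were not called under either.

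Both relatives left out by the symbol rule changed in several of these comparisons. Slco1a1, a neighbour of Slco1a4, was higher in RD LFKO (1.04 ± 0.19), RD LPKO (0.73 ± 0.19) and RD LFPKO livers (0.87 ± 0.19) than in RD WT (limma adjusted p at most 0.0247). It was also higher on the high-fat diet in WT livers (0.67 ± 0.19, limma adjusted p = 0.0150, values as deposited). Slc22a5, the carnitine transporter gene, was lower in RD LPKO (-1.35 ± 0.22) and RD LFPKO livers (-1.25 ± 0.22, limma adjusted p at most 0.00104).

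Of 33 other tested carriers and efflux pumps, 10 were called lower and 0 higher in HFD than in RD WT livers, close to the 29.8% of all tested genes called lower, and their median log2 change of -0.27 was close to the -0.29 of all tested genes. Among them were the pump genes Abcc3 (-1.84 ± 0.31) and Abcb11 (-0.57 ± 0.14), the bile salt export pump (limma adjusted p at most 0.00867, values as deposited). In RD LPKO livers 3 were higher and 3 lower (5.85% of all tested genes were called), including the citrate carrier Slc13a5 (2.06 ± 0.30) and the sterol exporters Abcg8 (-1.21 ± 0.16) and Abcg5 (-1.03 ± 0.21, limma adjusted p at most 0.00399). The bile acid carrier gene Slc10a2 was 1 of 2 called in RD LFKO livers (1.26 ± 0.27, limma adjusted p = 0.0199), and Slc15a5 was the other, lower. In that comparison 1.67% of all tested genes were called.

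Of 26 tested regulators of drug and bile acid metabolism, limma called 0 in RD LFKO and 0 in RD LPKO livers against WT, with 4 and 6 at an unadjusted p under 0.05. The shares of all tested genes called there were 1.67% and 5.85%. In RD LFPKO livers 2 regulators were higher and 1 lower (7.45% of all tested genes were called). Between diets in WT livers 8 were lower and 0 higher, again close to the 29.8% of all tested genes called lower, with a median of -0.25 against -0.29. Among them were Nr1i2 (-0.54 ± 0.16), which encodes the xenobiotic receptor PXR, and Hnf4a (-0.43 ± 0.12, limma adjusted p at most 0.0178, values as deposited). In HFD LFPKO against LFKO livers 3 were lower and 0 higher, close to the 10.6% of all tested genes called. The median of the 26 was -0.10, against -0.13 over all tested genes, with Nr1i2 at -0.87 ± 0.16 (limma adjusted p = 8.96e-04). Slc22a7 and Slco2a1 were higher and Slc22a23, Slc22a26 and Slc22a27 lower in that same comparison. A link between these values and the regulators was not tested.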

How the data were processed

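Liver libraries were made with the TruSeq stranded mRNA kit from Trizol RNA, per the labels' protocols. The deposited table holds gene-level TPM computed by the authors; kallisto and the builds GRCm38 and mm10 are named in the submitters' processing notes, and neither its version nor the annotation is stated there. The 1 row without a name was left out. Values were changed to log2(TPM + 1), and genes with a mean of at least 1 TPM were tested with limma 3.58.1 in R 4.3.3, in 1 fit of 8 group means over 24 libraries (16 residual degrees of freedom) with a variance trend. Benjamini-Hochberg adjustment was made within each of 14 comparisons, two-sided. The fit was tested on simulated data.

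The members and gene lists were chosen with earlier results of these data known. Members of at least 1 TPM were named, apart from 1 that is counted but not reported here, and from other lists up to 4 genes a comparison. Rescaling used median-of-ratios factors. Removal of Mup and mitochondrial-genome transcripts was chosen after seeing the data. Other alternatives were a pseudocount of 0.1, no limit or a limit of 5 TPM, the compared groups alone, a replicate block, and omission of each library in turn. Shared 31-base words and promoters were read with Biopython 1.88 in Python 3.11.15.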

Additional observations from a re-analysis of the deposited data

How the results depend on the processing

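Of 30 member calls in the 14 comparisons, 10 held under every alternative, 20 were lost under at least 1, and 0 changed direction. Median-of-ratios rescaling lost 9 of them and removal of Mup and mitochondrial-genome transcripts 7. In HFD against RD WT, 7 members became 4 with no limit and 3 under either rescaling. In HFD LFKO against WT, 4 became 1 at 5 TPM, 1 after rescaling, 0 with the compared groups alone and 2 without Mup and mitochondrial-genome transcripts. In HFD LFPKO against LFKO, 5 became 3 at 5 TPM and 1 with the compared groups alone. In RD LFKO against WT, 2 became 0 at 5 TPM, a limit that removes both genes, and 4 with the compared groups alone. In RD LFPKO against WT, 3 became 5 after rescaling and 1 with the compared groups alone, and against LFKO 3 became 1 at 5 TPM. In HFD LPKO against WT, 1 became 2 with a pseudocount of 0.1, 4 after rescaling, 0 with the compared groups alone and 3 without Mup and mitochondrial-genome transcripts. The single call in HFD LFPKO against WT was 0 with no limit, after rescaling and with the compared groups alone, and that against LPKO was 0 with a pseudocount of 0.1, with no limit and with the compared groups alone.

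Leaving out 1 library gave 3 to 6 members in HFD against RD WT, 1 to 6 in HFD LFKO against WT (1 without HFD LFKO replicate 3), 2 to 5 in HFD LFPKO against LFKO, 0 to 3 in RD LFPKO against WT (0 without RD WT replicate 3 and 1 without RD LFPKO replicate 3), 1 to 2 in HFD LPKO against WT, and 0 to 1 in HFD LFPKO against WT and against LPKO. It gave 2 to 3 in RD LPKO against WT and RD LFPKO against LFKO, 2 in RD LFKO against WT, and 0 in RD LFPKO against LPKO and each interaction. Fits with the replicate block lost 4 calls, among them Slc22a23 in RD LPKO against WT (limma adjusted p = 0.0505) and Slc22a30 in HFD against RD WT (0.0517). They gave 2 members in place of 1 in HFD LPKO against WT and 2 in place of 3 in RD LPKO against WT. In 0 of 20 group pairs did every same-numbered pair of libraries correlate above 0.1 (range -0.23 to 0.39). Between HFD LFKO and HFD LFPKO the values were 0.32, 0.09 and 0.39. Differently numbered libraries were not compared, so these values cannot tell whether a replicate number marks a pairing or a batch. Depth is unknown, so values below 1 TPM have no counting error attached.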
